A study of Mus musculus with 6 samples.

Results

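Kinesins are motor proteins that use ATP to walk along microtubules, the hollow tracks of tubulin inside cells. One set of them builds and runs the mitotic spindle and is made mostly by dividing cells, in which it pushes the spindle poles apart, holds chromosome arms, trims microtubule ends and closes the cut between daughter cells. Another set carries vesicles, lysosomes and mitochondria toward the cell edge in cells of every kind, macrophages included, whether or not they divide. The kinesin motor genes are described here in peritoneal macrophages of old and young mice, as every protein-coding mouse gene with a symbol of the form Kif and a number, with or without a final a, b or c. GENCODE holds 38 such genes, of which 32 were among the 19973 genes analysed and 26 reached the mean normalized count of 10 that the test required. They were sorted by textbook role into 11 mitotic motors, 13 cargo transport motors, 6 cilium motors and 8 other motors.

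The macrophages came from male C57BL/6 mice, a common inbred laboratory strain, aged 18 months (old) or 2 months (young). Every mouse had received 200 µg of zymosan A, particles of yeast cell wall that provoke an inflammation, into the peritoneal cavity. Cells were washed out 72 hours later, grown overnight in medium with L-cell supernatant, freed of unattached cells and kept for 6 hours with the vehicle, phosphate-buffered saline. Each age gave 3 libraries, all vehicle-treated, with 8163000 to 13008000 reads each. The series text speaks of 3 mice per group and of RNA sequenced in triplicate without tying a library to either, so the p-values reflect differences among libraries that can be technical in part. Values of single libraries are given below in the order of replicates 1, 2 and 3. All cells had been through the same inflammation and the same adherence step, and nothing here describes macrophages that had not.

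Macrophage markers checked the label: all 8 passed the filter, with summed normalized counts of 345257 to 430483 in old and 274834 to 349804 in young libraries, and 6 of the 8 were higher in old. Among markers of other cells, B cell genes were higher in old for 8 of 8 tested, with sums of 1386 to 2972 against 51.8 to 60.4, and mast cell genes for 5 of 6 tested, with sums of 549 to 628 against 46.3 to 70.2. The 8 T and NK cell markers lay under the filter, with sums of 57.2 to 76.1 against 4.23 to 9.05, and Trac and Trbc2 were at 0 in young. Neutrophil genes were higher in old for 2 of 2 tested (S100a8 and Csf3r), with sums of 993 to 1102 against 488 to 498. Camp was at 0 in old, and S100a9, Ly6g, Retnlg and Ngp were not among the genes analysed. Of all tested genes, 17.9% were higher and 17.6% lower in old. Of 4 tested fibroblast genes, Col1a1 was lower in old (log2 fold change -0.66 ± 0.13), Pdgfra was higher (1.19 ± 0.23) and 2 did not pass, with sums of 504 to 586 in old against 550 to 689 in young libraries. Old replicate 3 and young replicate 3 stood apart from the other libraries at opposite ends of the second principal component, which held 18.2% of the variance. Ribosomal RNA genes took 1.34% of reads in old replicate 3 and 0.0177% to 0.154% in the others.

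For the mitotic motors the regulatory sequence next to the gene start is shown first. Genes of the late cell cycle are known to carry a short element there, the cell cycle genes homology region, with the core letters TTTGAA. Its part in the age difference was not tested. Promoters of 300 bases (250 before and 50 after the start annotated by RefSeq, build GRCm38.p6) were matched for 31 of the 38 genes. Kif20a, Kif13b, Kif5a, Kif5b, Kif19a, Kif21b and Kif28 had no entry. TTTGAA on either strand stood in the promoters of 9 of 10 mitotic motors and 1 of 10 cargo transport motors (Kif1a), against 17.9% of 32851 promoters of all genes. Within 30 bases of the start it stood in 7 of 10 mitotic and 0 of 10 transport motors, against 3.19% of all promoters. The mitotic exceptions were Kif18a, without these letters, and Kif14 and Kif2c, in which they lay farther away. In Kif14 and Kif2c the RefSeq start used lies well inside the GENCODE gene bounds given below. The promoters used for Kif4, counted as close above, for the transport motor Kif17 and for the cilium motor Kif27 also lie wholly inside the GENCODE gene. In these genes the stretch at the GENCODE start was not searched. Among cilium motors 1 of 5 held TTTGAA (Kif27), and among other motors 1 of 6 did (Kif26b, close to its start). Kif24 and Kif2a, which also fell with age, held none. The 10 transport motors with a promoter are not the same as the 10 tested below. In the sequences below, capitals mark TTTGAA or CCAAT (the letters of the CCAAT box), or their reverse complements TTCAAA and ATTGG. Kif11, Kif1c and Kif3b are given over the stretch before the start (the last 100 bases for the first 2), and the others over 30 bases around TTTGAA. The paired long stretches let a spindle motor be read against transport motors, and the short ones show that the letters around the element differ from gene to gene.
Kif11 (chr19:37376282-37376381, plus strand): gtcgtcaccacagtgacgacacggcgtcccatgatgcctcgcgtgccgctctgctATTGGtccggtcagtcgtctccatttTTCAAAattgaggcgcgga
Kif15 (chr9:122951050-122951079, plus strand): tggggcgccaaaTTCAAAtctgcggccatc
Kif22 (chr7:127042420-127042449, minus strand): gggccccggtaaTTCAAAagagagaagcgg
Kif18b (chr11:102925104-102925133, minus strand): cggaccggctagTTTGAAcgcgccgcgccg
Kif20b (chr19:34922353-34922382, plus strand): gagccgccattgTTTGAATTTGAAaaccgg
Kif23 (chr9:61946780-61946809, minus strand): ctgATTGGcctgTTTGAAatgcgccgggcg
Kif4 (chrX:100626072-100626101, plus strand): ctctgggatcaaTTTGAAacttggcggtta
Kif1c (chr11:70700448-70700547, plus strand): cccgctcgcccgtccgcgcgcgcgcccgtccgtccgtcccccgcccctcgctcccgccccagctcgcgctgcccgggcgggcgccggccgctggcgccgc
Kif3b (chr2:153291316-153291412, plus strand): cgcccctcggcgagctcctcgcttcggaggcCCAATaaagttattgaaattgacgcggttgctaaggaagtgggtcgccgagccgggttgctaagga

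CCAAT, searched on both strands in the same way, separated the roles less. It stood in 6 of 10 mitotic, 3 of 10 transport, 3 of 5 cilium and 2 of 6 other motors, against 37.4% of all promoters. Of 3 longer motifs of the E2F type, GGCGGGAA and TTTCCCGC were found in no mitotic motor (2.19% and 1.07% of all promoters), and TTTGGCGC was found in 2, Kif15 and Kif18a, against 0.514% of all promoters. In Kif15 the TTTGGCGC letters lie next to TTTGAA without sharing a base. A match of letters is a description of the sequence and not a measured binding site.

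Old macrophages held far fewer transcripts of every mitotic motor, while the cargo transport motors as a set had levels near those of young cells. All 11 mitotic motors fell with age, by 3.21-fold (Kif18a) to 9.86-fold (Kif14) in mean normalized count, and in each of them every young library lay above every old one. Of the 10 transport motors tested, 1 fell (Kif13b), 3 rose by less than 1.4-fold (Kif1b, Kif1c and Kif3c) and 6 did not pass. Over all 11795 genes tested, 17.6% were lower and 17.9% higher in old, 35.5% in either direction, by limma with a Benjamini-Hochberg adjusted p below 0.05, and 4.89% were lower by at least 1 on the log2 scale, which every mitotic motor was. Every young library lay above every old one in 23.6% of tested genes and the reverse held in 24.0%. The median log2 fold change (old minus young, of the normalized count + 1) was -2.57 for the mitotic motors and 0.10 for the tested transport motors, beside 0.00014 for all tested genes. In bulk libraries fewer dividing cells and less of these RNAs per dividing cell cannot be told apart.

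**Figure D1:**
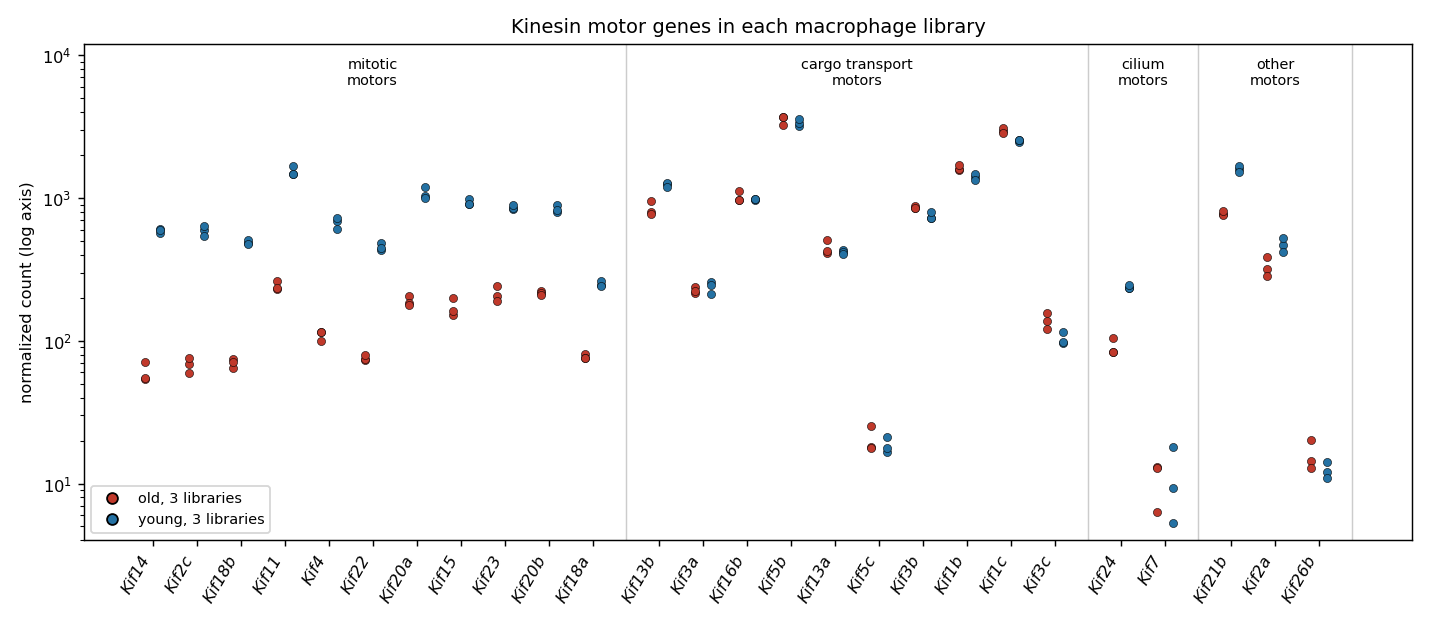
Normalized count (log axis) of the 26 tested kinesin motor genes, one point per library, old in red and young in blue, grouped by role. The old points of all 11 mitotic motors lie below the young points, whereas those of most cargo transport motors lie close to theirs.

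The composition of the motor pool shows the same contrast within each library. Mitotic motors took 10.7%, 10.3% and 10.2% of all kinesin reads in old libraries, and 37.9%, 37.7% and 39.0% in young ones. Transport motors took 80.5% to 81.6% of kinesin reads in old and 50.9% to 51.1% in young libraries. Shares must add up, so the second pair of ranges follows in part from the first. As normalized counts, mitotic motors summed to 1466 to 1531 in old and 8027 to 8607 in young libraries, and transport motors to 11600 to 11756 and 10769 to 11233. The transport sums did not overlap on that scale but did as CPM (reads scaled to one library total), with 1057 to 1119 in old and 1065 to 1107 in young libraries. The median log2 level of the tested mitotic motors minus that of the tested transport motors was -2.83, -2.84 and -3.15 in old against -0.45, -0.30 and -0.29 in young libraries.

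**Figure D2:**
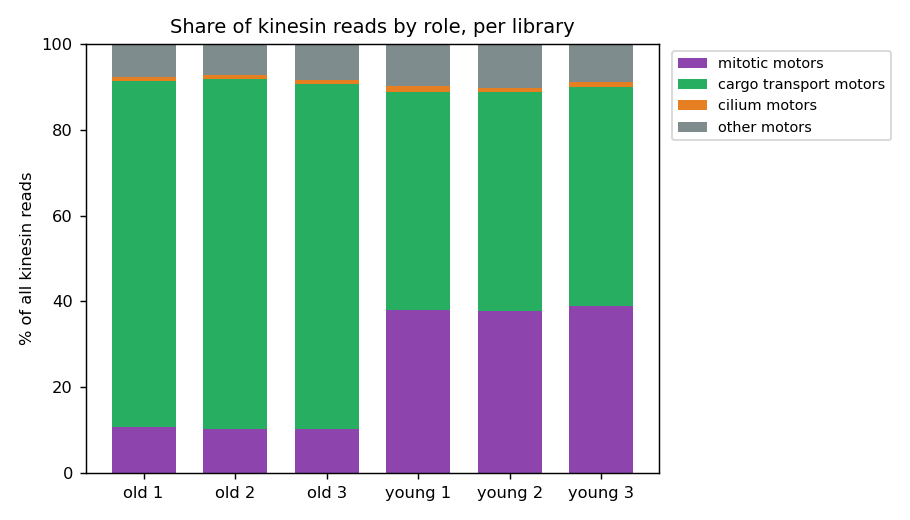
Percent of all kinesin reads that fall on mitotic, cargo transport, cilium and other motors, one stacked bar per library. Mitotic motors take 10.2% to 10.7% in the 3 old and 37.7% to 39.0% in the 3 young libraries.

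The motors that build the bipolar spindle are Kif11 (Eg5), which slides antiparallel microtubules apart, and Kif15, which can keep the poles separated beside it. Kif11 (chromosome 19, 37376403 to 37421859, plus strand, GRCm38) had 262, 232 and 232 normalized counts in old against 1481, 1471 and 1666 in young libraries. The groups were far apart, and young replicate 3 was the highest. On the log2 scale it changed by -2.67 ± 0.083 (SE; limma adjusted p = 6.73e-08), and its mean was 6.36-fold higher in young. Kif15 (chromosome 9, 122951046 to 123018733) had 151, 162 and 198 normalized counts in old against 914, 984 and 906 in young libraries. Old replicate 3 was the highest of the old libraries and still far below the young ones. The mean of Kif15 was 5.49-fold higher in young, and the change was -2.46 ± 0.11 on the log2 scale (SE; limma adjusted p = 3.08e-07).

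Chromokinesins sit on chromosome arms. Kif4, which also organises the central spindle with Prc1, had 115, 115 and 100.3 normalized counts in old against 604, 689 and 725 in young libraries. Kif22 (Kid), which pushes chromosomes toward the spindle equator, had 72.9, 74.4 and 80.02 in old against 435, 485 and 444 in young libraries. Both fell by a similar amount, with log2 fold changes of -2.60 ± 0.10 for Kif4 and -2.57 ± 0.096 for Kif22 (SE; limma adjusted p = 1.72e-07 and 1.3e-07). Annotated pseudogene copies, Kif4-ps and Kif22-ps, exist for both, and how reads that fit gene and copy were counted is not given in the sources used here.

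Among the motors that act on microtubule ends, Kif2c (MCAK) takes microtubules apart at centromeres, Kif18a limits microtubule length at kinetochores, and Kif18b does so on the microtubules that reach from the poles to the cell edge. They hold nearly the whole range seen among mitotic motors. Kif2c (chromosome 4, 117159639 to 117182639, minus strand) had 59.8, 68.4 and 76.2 normalized counts in old against 593, 543 and 638 in young libraries, an 8.68-fold higher mean in young. Kif18a (chromosome 2, 109280738 to 109341747) had 81.3, 76.1 and 76.2 in old against only 247, 262 and 241 in young libraries, a 3.21-fold higher mean in young. In old libraries the counts of both genes, not corrected for length, thus lay at about the same height, whereas in young ones Kif2c was well above Kif18a. Per kilobase of exon, Kif2c had 15.6 and Kif18a 7.92 in old, and 136 and 25.4 in young libraries. The 95% confidence intervals of their log2 fold changes, -3.36 to -2.84 for Kif2c and -1.90 to -1.44 for Kif18a, do not overlap. Kif18b lay between them, with 64.5 to 74.4 normalized counts in old and 477 to 511 in young libraries and changed by -2.79 ± 0.097 on the log2 scale (SE; limma adjusted p = 1.01e-07).

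The next 4 motors act at the central spindle and in cell separation: Kif23 (MKLP1), which forms the centralspindlin complex with Racgap1, Kif20a (MKLP2), which brings Aurora B there, Kif20b, and Kif14, which works with the kinase Cit. Kif14 (chromosome 1, 136466343 to 136531511) had 53.8, 70.9 and 54.6 normalized counts in old against 610, 566 and 593 in young libraries. It had the lowest log2 fold change of all kinesins, -3.29 ± 0.12 (SE; limma adjusted p = 1.3e-07), which placed it 30th from the bottom among all tested genes. Kif23 (chromosome 9, 61915905 to 61946774, minus strand) had 243, 206 and 191 in old against 832, 846 and 897 in young libraries, and it changed less, by -2.01 ± 0.098 on the log2 scale (SE; limma adjusted p = 6.3e-07). Kif20b was close to Kif23, with 208 to 223 normalized counts in old and 804 to 889 in young libraries and a log2 fold change of -1.95 ± 0.076. Kif20a had 178 to 206 in old and 1002 to 1199 in young libraries, a log2 fold change of -2.50 ± 0.095. Motors of one cellular task therefore did not share one fold change, since Kif14 fell by 9.86-fold and Kif20b by 3.88-fold, with intervals (log2) of -3.57 to -3.02 and -2.12 to -1.78. Kif20a shares 1271 of its 4338 exon bases with Cdc23 on the other strand (log2 fold change -0.64), and Kif4 shares 832 of 5514 with Pdzd11 (-0.34). Reads in these shared stretches cannot be assigned without strand, so both values are uncertain to that extent.

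**Figure D3:**
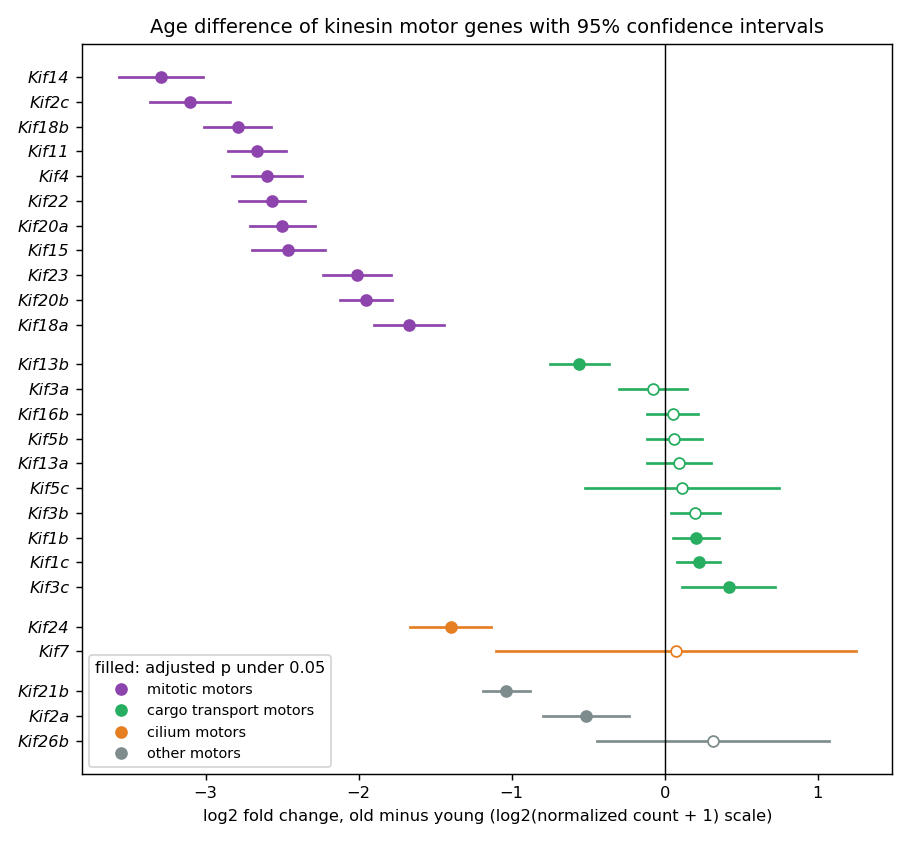
Log2 fold change (old minus young, log2(normalized count + 1) scale) with 95% confidence interval for the 26 tested kinesin motor genes, coloured by role, filled where the limma adjusted p is under 0.05. Mitotic motors run from -3.29 (Kif14) to -1.67 (Kif18a), while the 10 cargo transport motors lie between -0.56 and 0.42.

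The mitotic motors were also set against Mki67, which encodes Ki-67, a protein of cycling cells. In old libraries Mki67 had 1326, 1279 and 1453 normalized counts, and in young ones its mean was 8.58-fold higher (log2 fold change -3.10 ± 0.074). The ratio of Kif14 and of Kif2c to Mki67 overlapped between the ages. Kif2c stood at 4.51% to 5.35% of the Mki67 count in old and 4.70% to 5.36% in young libraries, and Kif14 at 3.76% to 5.55% and 4.88% to 5.51%. For the other 9 mitotic motors the ratio was higher in every old than in every young library, which was also so for 98.1% of all tested genes. That count is below the share over all genes and is no result about these motors. For each of them the exact permutation test (2-sided) gave p = 0.1, which is as low as 3 against 3 can reach, so none could pass 0.05. Kif18a stood at 2.16% ± 0.16 in young and 5.77% ± 0.47 in old (SD, n = 3 each), Kif20b at 7.23% ± 0.47 and 16.0% ± 1.4 and Kif23 at 7.40% ± 0.10 and 15.8% ± 2.6. Kif11 differed less, with 13.3% ± 0.49 in young and 17.9% ± 1.9 in old. These are ratios of counts not corrected for gene length, and they compare libraries, not genes.

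**Figure D4:**
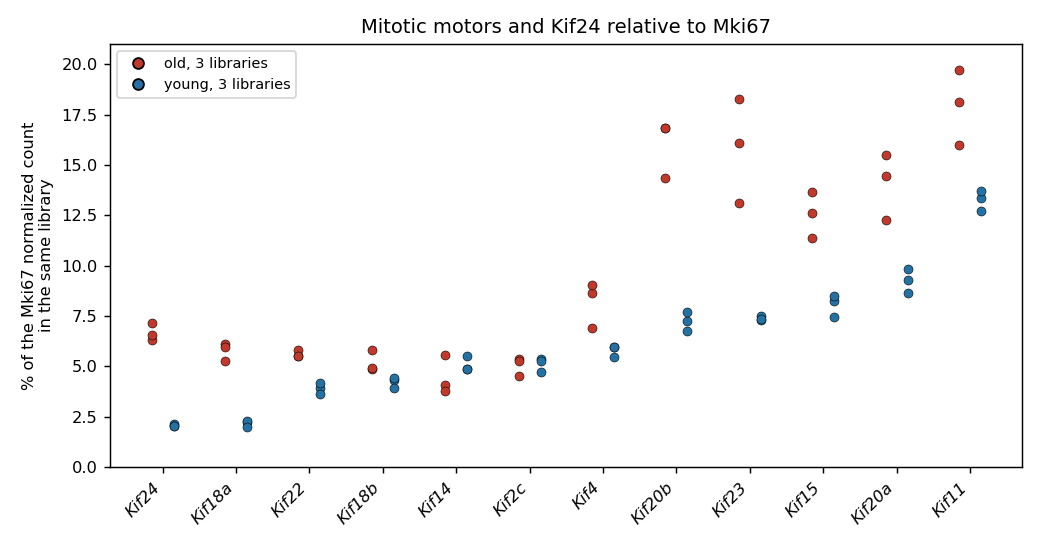
Normalized count of the 11 mitotic motors and Kif24 as a percent of the Mki67 normalized count of the same library, one point per library, old in red and young in blue. Kif14 and Kif2c overlap between the ages, whereas for Kif18a, at 2.16% in young and 5.77% in old on average, the points are far apart, and 98.1% of all tested genes have a higher ratio in every old library.

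The most abundant kinesins of these macrophages for their length were cargo transport motors. Per kilobase of exon, the highest levels in old libraries were those of Kif5b, a heavy chain of conventional kinesin, with 443 normalized counts per kb, Kif1c, a vesicle motor, with 405, and Kif3b, a subunit of the kinesin-2 motor, with 153. In young libraries Kif5b had 423 and Kif1c 347 per kb, and the mitotic motors Kif20a, with 248, Kif11, with 206, Kif18b, with 137, and Kif2c, with 136, came above Kif3b, with 133. In old libraries Kif20a and Kif11 had 43.6 and 32.4 per kb.

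Within conventional kinesin, Kif5b had 3678, 3676 and 3241 normalized counts in old against 3178, 3359 and 3601 in young libraries. The groups overlapped, with old replicate 3 the lowest of the old and young replicate 3 the highest of the young libraries. It did not pass, at 0.063 ± 0.079 on the log2 scale (SE; limma adjusted p = 0.564), with a 95% confidence interval of 0.92-fold to 1.18-fold. It passed in 2 of 19 alternatives, 1 of them without both libraries numbered 3, at 0.17 (limma adjusted p = 0.00754, range over the alternatives 0.00754 to 0.893). The nerve cell forms were scarce: Kif5c had 16.7 to 25.1 normalized counts over the libraries and did not pass (log2 fold change 0.11 ± 0.28), and Kif5a, with 5.92 to 14.9, lay under the filter.

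The kinesin-3 family moves vesicles, lysosomes and endosomes, apart from its mitotic member Kif14 described above. Among its cargo transport members, 2 had small increases and 1 a decrease. Kif1c (chromosome 11, 70700548 to 70731964) had 2928, 3071 and 2842 normalized counts in old against 2489, 2547 and 2539 in young libraries. The groups were separate, and the gene rose by 0.22 ± 0.062 on the log2 scale (SE; limma adjusted p = 0.0207). Kif1b, carrier of synaptic vesicle precursors and of mitochondria in its 2 main forms, had 1560, 1591 and 1701 in old against 1395, 1462 and 1344 in young libraries, a rise of 0.21 ± 0.067 on the log2 scale (SE; limma adjusted p = 0.0379). Kif13b (chromosome 14, 64647265 to 64809617), a carrier of signalling proteins to the cell edge, was the transport motor that fell, with 798, 778 and 949 normalized counts in old against 1244, 1267 and 1193 in young libraries. Old replicate 3 came nearest to the young libraries without reaching them, and on the log2 scale the change was -0.56 ± 0.085 (SE; limma adjusted p = 0.000848). Its paralog Kif13a, which brings endosomes and melanosome cargo outward, had 410 to 504 normalized counts in old and 403 to 432 in young libraries and did not pass (log2 fold change 0.093 ± 0.093). Kif16b, a motor of early endosomes, had 963 to 1113 and 967 to 992 and did not pass (0.051 ± 0.074, 95% confidence interval 0.92-fold to 1.16-fold). Kif1a, the nerve cell form, lay under the filter with 0 to 10 reads per library.

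In kinesin-2, which carries cargo in the cell body and along cilia, Kif3b had 845, 886 and 856 normalized counts in old against 721, 729 and 804 in young libraries. The groups did not overlap, but the gene did not pass (log2 fold change 0.20 ± 0.070; limma adjusted p = 0.0527), and over the alternatives its adjusted p ran from 0.00181 to 0.187. Its partner Kif3a had 217 to 238 in old and 214 to 258 in young libraries, with a log2 fold change of -0.077 ± 0.099 and a 95% confidence interval of 0.81-fold to 1.11-fold. Kif3c, a further partner, had 157, 121 and 138 in old against 96.6, 115 and 98.0 in young libraries, a rise of 0.42 ± 0.14 on the log2 scale (SE; limma adjusted p = 0.0385). It shares 2617 of its 7406 exon bases with the antisense gene 1110002L01Rik, which was also higher in old (0.43 ± 0.14). Reads in the shared stretch cannot be assigned without strand, so the value of Kif3c is uncertain to that extent. Kif17 was not analysed here.

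The increases of transport motors were small and depended on which libraries were used. Without old replicate 1 or young replicate 1, 0 transport motors were called higher in old. Without old replicate 2 or young replicate 2, 1 was, and 5 were without both libraries numbered 3. With edgeR's quasi-likelihood test 1 of them, Kif1c, was called (adjusted p = 0.0213). Of the 19 alternatives, Kif1c was called in 12 (adjusted p from 0.000297 to 0.133), Kif3c in 11 (0.0141 to 0.149) and Kif1b in 8 (0.0163 to 0.168). The loss in mitotic motors kept all 11 calls in each of the 19 alternatives run.

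The cilium motors were few and low, apart from Kif24, a motor that remodels microtubules at centrioles and holds back cilium formation in cycling cells. Kif24 (chromosome 4, 41390745 to 41464887, minus strand) had 83.7, 83.8 and 104 normalized counts in old against 235, 236 and 247 in young libraries. It fell by 2.64-fold (log2 fold change -1.40 ± 0.12; limma adjusted p = 1.85e-05), and its 95% confidence interval, -1.67 to -1.14, overlapped that of Kif18a alone among mitotic motors. Kif7, which acts in Hedgehog signalling at the cilium tip, had 6.35 to 13.1 in old and 5.26 to 18.1 in young libraries and did not pass (0.074 ± 0.52), and this interval, 0.47-fold to 2.38-fold, is wide. It shares 877 of 4581 exon bases with the antisense gene 9330171B17Rik and 51 with Ticrr. Reads of Kif9 numbered 6 to 15 in old and 6 to 8 in young libraries, and those of Kif19a 2 to 3 and 5 to 7. Neither reached the filter, with 2-sided exact permutation p-values of 0.2 and 0.1 on normalized counts, and 0.1 is the smallest possible. Ciliated cell markers summed to 6.84 to 9.56 normalized counts in old and 9.05 to 12.3 in young libraries, all under the filter. Kif6 and Kif27 were not analysed here.

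Among the remaining motors, Kif21b, which tempers microtubule growth and is known from lymphocytes and nerve cells, fell. Kif21b (chromosome 1, 136131389 to 136177998) had 771, 759 and 815 normalized counts in old against 1608, 1686 and 1518 in young libraries, a 2.05-fold higher mean in young (log2 fold change -1.04 ± 0.069; limma adjusted p = 3.98e-06). B cell markers, and the sum of T and NK cell markers, were higher in the same old libraries in which Kif21b was lower, and their part in its level was not tested. Kif2a, a relative of Kif2c that shortens microtubules both in spindles and in resting cells, had 320, 284 and 387 in old against 470, 522 and 421 in young libraries. The groups came close, between old replicate 3 and young replicate 3, and the log2 fold change was -0.52 ± 0.13 (limma adjusted p = 0.0107). Its call held in 17 of 19 alternatives. It was lost without young replicate 2 (-0.44, limma adjusted p = 0.0531) and with the replicate number as a block (limma adjusted p = 0.05485). Kif2a shares 1229 of 6393 exon bases with Dimt1 on the other strand, which did not pass (0.23 ± 0.14). Kif26b, a motor-like protein without walking activity, had 10.99 to 20.3 normalized counts over all libraries and did not pass (0.31 ± 0.34). Kif21a had 0 to 1 reads per library. Kif26a had 2 reads in old replicate 2 and 0 in all others, where 0 reads allow up to 3. Kif2b, Kif12 and Kif28 were not analysed here.

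The genes that work with the motors were taken from lists by function. All 18 of 18 partners of the mitotic motors fell, beside 17.6% of all tested genes, with a median log2 fold change of -2.46. Plk1, a mitotic kinase that binds Kif20a at the central spindle, was lowest, with 40.9 ± 7.05 against 568 ± 22.7 normalized counts (SD, n = 3 each; log2 fold change -3.78 ± 0.13). Birc5 (survivin), a subunit of the chromosomal passenger complex that Kif20a carries, was at -2.73 ± 0.091, the cleavage furrow scaffold Anln at -2.71 ± 0.090 and Racgap1, the partner of Kif23, at -2.16 ± 0.066. Of 4 tested kinesins whose symbols fall outside the rule, 3 fell, beside the same 17.6% of all tested genes. Cenpe, the kinetochore motor that aligns chromosomes, was at -2.65 ± 0.080 and the minus-end spindle motor Kifc1 at -2.57 ± 0.12, while Kifc5b, a near-identical copy of Kifc1, was at -2.29 ± 0.22 and shares reads with it to an unknown extent. The fourth, Kifc3, a minus-end motor outside the spindle named after its value was seen, did not pass (-0.043 ± 0.099).

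Of 17 tested cargo adaptors and kinesin light chains, 1 rose, 0 fell and 16 did not pass, beside 35.5% of all tested genes called in either direction, with a median log2 fold change of 0.079. The gene that rose was Klc4, a light chain of conventional kinesin, with 507 ± 14.7 against 401 ± 8.21 normalized counts (SD, n = 3 each; log2 fold change 0.34 ± 0.070; limma adjusted p = 0.00483). Dynein, the motor that runs in the opposite direction, and its activator dynactin had 6 of 20 tested members higher and 2 lower. Of all tested genes, 17.9% were higher and 17.6% lower. The median of the dynein and dynactin list was 0.11. The dynein intermediate chain gene Dync1i2 was at 0.47 ± 0.080 and the light chain gene Dynll1 at 0.49 ± 0.11, whereas Nde1, a dynein regulator also used in mitosis, was at -0.61 ± 0.066 and the dynactin subunit Dctn1 at -0.30 ± 0.070.

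Tubulins and microtubule modifiers, the track itself, moved both ways. Of 16 tested, 7 fell and 3 rose, with a median of -0.30, beside 17.6% of all tested genes lower and 17.9% higher. Stmn1 (stathmin), which binds free tubulin and takes microtubules apart, fell most in the list, with 160 ± 20.99 against 432 ± 34.0 normalized counts (SD, n = 3 each; log2 fold change -1.43 ± 0.12). The beta tubulin Tubb5 was at -0.68 ± 0.11, while another beta tubulin, Tubb2a, at 0.72 ± 0.093 and the alpha tubulin Tuba1a at 0.93 ± 0.15 rose. Tubulin genes are close copies of each other, and how shared reads were counted is not given in the sources used here.

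**Figure D5:**
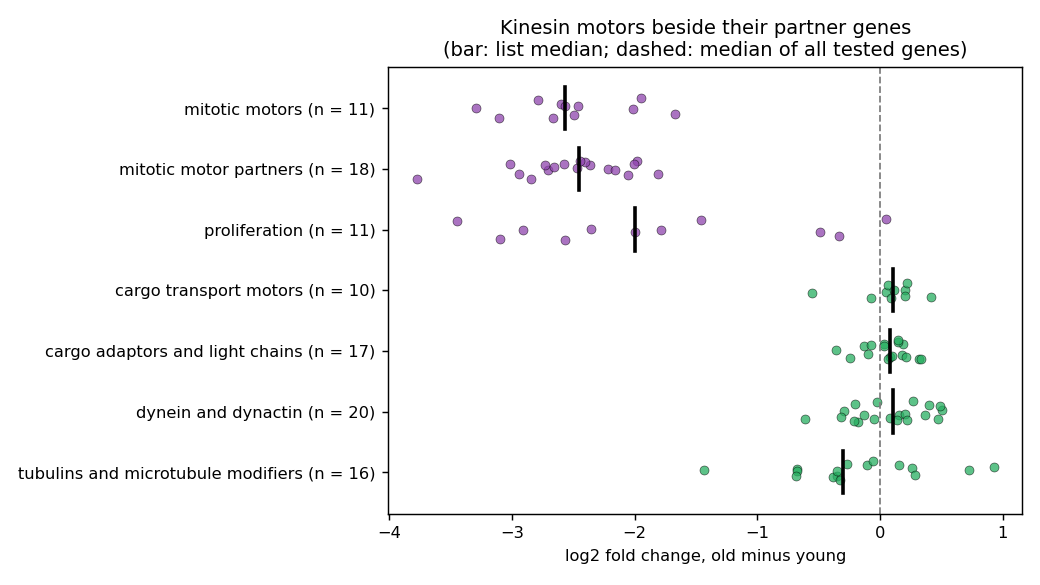
Log2 fold change (old minus young) of each tested gene in the mitotic and transport motor sets and in the lists of their partner genes. Black bars are list medians, at -2.57 for mitotic motors, -2.46 for their partners, 0.10 for transport motors and 0.079 for cargo adaptors and light chains, and the dashed line is the median of all tested genes.

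Within the proliferation list, 10 of 11 tested genes fell, beside 17.6% of all tested genes, and the median was -2.00. The gene that did not pass was Pcna, the sliding clamp of DNA polymerase, at 0.049 ± 0.10. Among the others, the smallest changes were those of the replication helicase genes Mcm2 (-0.34 ± 0.067) and Mcm5 (-0.49 ± 0.11), followed by the nucleotide synthesis genes Tyms (-1.46 ± 0.087) and Rrm2 (-1.79 ± 0.11), beside -1.67 ± 0.10 for Kif18a, the least changed mitotic motor. These 5 genes of the list were named after their values were seen. The cyclin genes Ccna2 and Ccnb2 were at -2.57 ± 0.084 and -3.45 ± 0.13, and Top2a, the topoisomerase that untangles chromosomes, was at -2.36 ± 0.082. B cell, mast cell and neutrophil markers were higher in the old libraries, as was the sum of T and NK cell markers. Of the 4 tested fibroblast genes, Col1a1 was lower in old, Pdgfra was higher and 2 did not pass. The part of these markers in the lower levels of the mitotic motors was not tested.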

How the data were processed

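RNA sequencing of 6 macrophage libraries was analysed, 3 old and 3 young. The authors deposited one table of normalized counts, of the kind signal, that is, read numbers scaled by one size factor for each library, and the submitters' processing notes name DESeq2 and mm10 with no version. Aligner and counter names and the strand setting were not given in the sources used here. Every value was a whole multiple of its library's step (100% within 0.01 reads), so reads were recovered. No pair of libraries agreed within sampling noise (ratio at least 1.49). Symbols, positions and exon lengths came from GENCODE M21 on GRCm38 and matched 19917 identifiers, with 56 unmatched.

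The test was limma 3.58.1 in R 4.3.3 with a variance trend on log2(normalized count + 1), for genes with a mean of at least 10, with Benjamini-Hochberg adjustment across every gene tested and a threshold of 0.05. Checks with simulated data recovered known large changes, and changes as small as those of the transport motors were not simulated. Alternatives were other pseudocounts, filters, scalings and variance models, edgeR 4.0.16 (TMM) and DESeq2 1.42.0 on recovered reads, the replicate number as block, and libraries left out. Every member was named, and up to 4 called genes per list by smallest adjusted p, or the 2 of highest mean where none was called. Members, roles and lists were chosen with earlier results of these data known. Fold values are ratios of mean normalized counts. Promoters came from RefSeq (GRCm38.p6).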

Additional observations from a re-analysis of the deposited data

How the results depend on the processing

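All 11 mitotic motors stayed called lower in old in the 19 alternatives, and the median difference between mitotic and transport motors (-2.67) ran from -2.74 to -2.60. The count of transport motors higher in old (3) was the least stable. It was 1 without a filter and with edgeR, 0 without the variance trend, and 5 with array quality weights or without both libraries numbered 3. With 1 library left out it ran from 0 to 3, and the count of other motors called (2) from 1 to 2. The genes called in all (4183) became 7634 with array quality weights and 6960 without the libraries numbered 3, and the cause was not tested. Median centring gave 2724 higher and 1790 lower (60.3% higher), against 2107 and 2076.

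Sign changes touched only members that had not passed. Kif5b was -0.082 with quantile normalization, Kif16b -0.012 with array quality weights, and without both libraries numbered 3 Kif16b was -0.016 and Kif13a -0.022. With 1 library left out, Kif16b ran from -0.016 (without old replicate 3) to 0.088, Kif5c from -0.042 (without old replicate 1) to 0.21 and Kif7 from -0.31 to 0.38, with -0.089 without old replicate 1 and -0.072 without old replicate 2.

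With the replicate number as a block, 2643 genes, 0 transport motors higher in old and 1 other motor were called. Deviations from the mean of each age correlated at -0.38, -0.36 and -0.68 between same-numbered libraries, so they showed no likeness by number. With 3 libraries per age, whose deviations from their own mean are tied together, this cannot exclude pairing. Depth limits the members with fewer than about 20 reads per library, whose intervals are wide.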
